A study of Mus musculus with 10 samples.

Results

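The genes described here are 46 genes of striated muscle, the muscle of heart and skeleton: the sarcomere, the calcium store that triggers contraction, and the transcription factors that set up the lineage. They are a list of symbols drawn up by muscle function with earlier results of these data known, and each was measured by the probe sets that the platform annotation ties to that symbol alone, taking the probe set with the highest mean where a gene had several. All 46 were measured, among 18193 genes in all, and 16 of them had more than 1 probe set. By textbook use, 22 were grouped as skeletal, 16 as cardiac and 8 as shared by both muscles.

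Expression was measured on 10 Affymetrix arrays of mouse embryonic stem cells (strain C57BL/6) taken through differentiation, with 1 array per condition and no replicates. At day 8 there was a control and a culture given KGF (keratinocyte growth factor, also called FGF7, a mitogen for epithelium). Days 17 and 24 each had a control, a KGF culture, a culture given DCI (taken here as the dexamethasone and raised cAMP of the series title) and a culture given both. The title sets the question as differentiation toward alveolar type II cells of the lung, so the cultures were not directed to muscle by their stated aim. The labels give no line name, no number of pooled cultures and no medium, and the cells are a mixed bulk culture in which fewer muscle cells and less RNA per cell cannot be told apart.

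Muscle contracts when calcium released from the sarcoplasmic reticulum binds troponin and lets myosin heads pull on actin. Heart and skeletal muscle build this machine from partly separate gene families, and embryonic muscle uses isoforms that adult muscle later replaces. In skeletal muscle, the factors Myf5 and MyoD commit cells to the lineage and myogenin drives their differentiation, while heart muscle is set up by factors such as Nkx2-5, Gata4 and Tbx5. Embryonic stem cells left to differentiate as mixed cultures are known to form beating heart muscle early and skeletal muscle later.

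Values are log2 expression, on which a difference of 1 is 2-fold. Of the 46 genes, 37 reached the median of all gene values (6.67) on at least 1 array, and 9 stayed below it everywhere. The labels call the source embryonic stem cells, but on these arrays the median of 6 pluripotency genes lay between 5.02 and 6.64 over the arrays. Pou5f1 and Nanog, defining genes of the pluripotent state, read at most 6.24 and 6.85. Of the 6 genes 2 were above the median of all values on every array but 1, with 3 above it in the day 17 culture with both treatments, and Sox2, which neural cells also make, read between 7.39 and 8.86. In its 3′ minus 5′ probe differences, a sign of RNA and labelling quality, the control of day 8 read highest: Actb gave 1.05 there and 0.46 to 0.62 elsewhere, while the dap spike-in gave 5.34 there and at most 2.998 elsewhere. Values without it are given for the fit from day 8 to day 17 over the 46 genes and for the cardiac regulators. They are not given beside the other comparisons with day 8.

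Skeletal muscle genes were low at day 8 and high at day 24, and at day 17 the culture given KGF alone stood above the other 3. The median of the 22 skeletal genes was 5.01 in the day 8 control and 4.71 with KGF. At day 17 it was 6.98 in the control, 8.10 under KGF, 6.97 under DCI and 7.44 for the combination. At day 24 it was 8.56, 8.57, 7.77 and 8.57 in the same order. Cardiac genes moved less, from 7.10 in the day 8 control to between 7.80 and 8.74 at day 17 and between 8.53 and 8.89 at day 24.

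**Figure D1:**
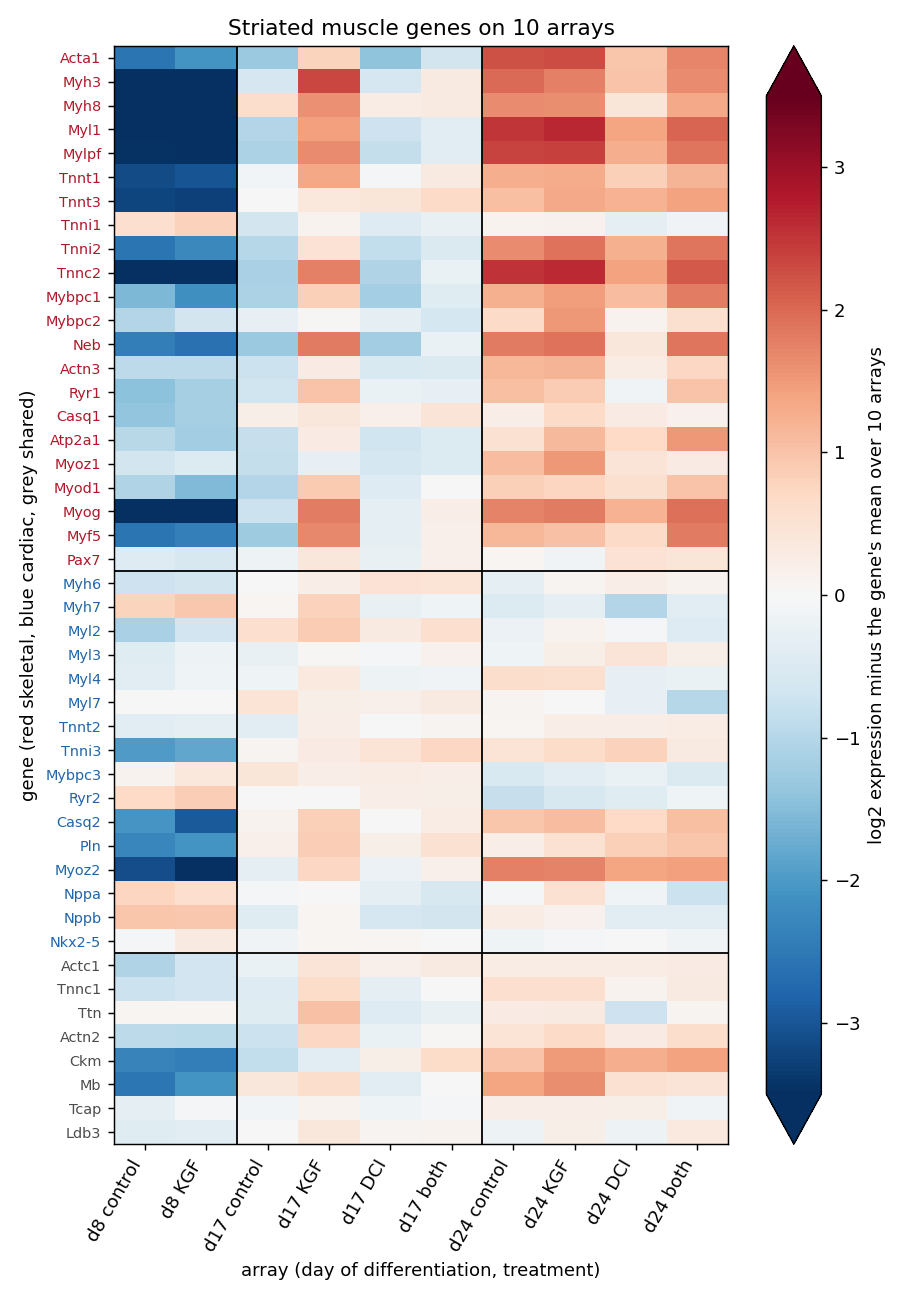
Log2 expression of each gene minus its own mean over the 10 arrays (colour), with genes in rows by class (red skeletal, blue cardiac, grey shared) and arrays in columns by day. Most skeletal rows are blue at day 8 and red at day 24, and within day 17 the KGF column is the reddest, while cardiac rows vary less and several are red at day 8.

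The promoters of 7 of these genes are shown, because their genes moved together over the arrays or stand for the opposite class: the 5 skeletal genes with the largest difference between the day 17 KGF and control arrays among those with a single entry in the RefSeq promoter table, and the cardiac genes Myh6 and Myl7. Each is the 150 bases before the gene's start, 5′ to 3′ on the gene's own strand, from RefSeq on build GRCm38.p6. Capitals mark E-boxes (CANNTG, the site class that myogenic factors bind), the MEF2 consensus (YTAWWWWTAR) and CArG boxes (CCWWWWWWGG), searched on both strands. Here N is any base, Y is C or T, W is A or T, and R is A or G. Near matches were not marked or counted, such as ctatatttat in Myog, which departs from the MEF2 letters only in its last base. The windows are Myh3 chr11:67078150-67078299 (plus strand), Myf5 chr10:107486135-107486284 (minus), Tnnc2 chr2:164779735-164779884 (minus), Mylpf chr7:127211458-127211607 (plus), Myog chr1:134289854-134290003 (plus), Myh6 chr14:54966608-54966757 (minus) and Myl7 chr11:5898783-5898932 (minus).
Myh3: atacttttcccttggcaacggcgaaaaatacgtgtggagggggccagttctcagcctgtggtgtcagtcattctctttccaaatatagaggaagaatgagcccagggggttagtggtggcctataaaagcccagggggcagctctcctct
Myf5: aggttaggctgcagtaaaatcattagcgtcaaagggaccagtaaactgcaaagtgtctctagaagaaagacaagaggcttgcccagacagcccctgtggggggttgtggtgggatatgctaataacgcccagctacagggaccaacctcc
Tnnc2: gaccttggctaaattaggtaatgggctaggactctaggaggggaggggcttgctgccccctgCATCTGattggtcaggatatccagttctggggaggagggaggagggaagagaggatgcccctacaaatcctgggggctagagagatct
Mylpf: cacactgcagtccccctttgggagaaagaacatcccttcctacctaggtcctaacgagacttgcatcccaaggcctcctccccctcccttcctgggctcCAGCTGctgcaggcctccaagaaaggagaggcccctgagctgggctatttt
Myog: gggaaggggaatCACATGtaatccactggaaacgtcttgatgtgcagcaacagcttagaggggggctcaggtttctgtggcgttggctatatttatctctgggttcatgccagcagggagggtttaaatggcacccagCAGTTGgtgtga
Myh6: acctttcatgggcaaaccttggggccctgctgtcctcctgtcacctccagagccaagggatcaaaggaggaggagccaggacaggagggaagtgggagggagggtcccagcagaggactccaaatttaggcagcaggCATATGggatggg
Myl7: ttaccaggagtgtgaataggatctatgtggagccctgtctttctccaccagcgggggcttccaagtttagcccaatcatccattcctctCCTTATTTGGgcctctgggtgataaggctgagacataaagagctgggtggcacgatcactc
Of the 46 genes 39 matched the table, and Tnni2, Tcap, Neb, Myod1, Actn3, Tnnt3 and Myoz1 did not. A CANNTG E-box stood in 8 of 16 skeletal, 13 of 16 cardiac and 3 of 7 shared promoters, against 47.4% of all 27025 promoters of this length. The narrower E-box CAGCTG, which is 1 form of CANNTG, stood in 4 of 16, 3 of 16 and 0 of 7, against 8.21%. The MEF2 consensus stood in 1, 3 and 0 of these, against 1.71%, and the CArG box in 1, 2 and 2, against 0.884%. A match is a run of letters and not a measured binding site, and the absence of a match says only that these letters are not in this window.

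The muscle transcription factors split between skeletal factors that appeared over the course and factors that stayed low. In the values that follow, the day 8 pair is control then KGF, and the 4 values of days 17 and 24 are control, KGF, DCI and both. Myog, for myogenin, which drives myoblasts to differentiate, read 4.39 and 3.92 at day 8, 7.24, 9.76, 7.67 and 8.22 at day 17, and 9.72, 9.82, 9.21 and 9.91 at day 24. Myod1, for MyoD, read 5.01 and 4.51 at day 8, 5.04, 6.98, 5.60 and 6.06 at day 17, and 6.89, 6.81, 6.61 and 7.06 at day 24. For both genes the day 17 KGF array was already at the level of the day 24 arrays, while the day 17 control was well below it. Myf5, which commits cells to the muscle lineage, ranged from 2.19 in the day 8 control to 6.57 in the day 24 culture with both treatments, below the median of all genes throughout. Pax7, of muscle stem cells, ranged only from 3.78 to 4.83 on the probe set used, and Nkx2-5, of the early heart, from 5.57 to 6.03. A further Pax7 probe set, also low, read 2.92 and 2.94 at day 8 and 3.93, 4.96, 3.74 and 4.73 at day 17. That probe set rose by 1.45 ± 0.25 over this interval (limma adjusted p = 0.000929), against 0.45 for the one used.

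Among the actins, Acta1 and Actc1 encode the skeletal and the cardiac alpha-actin, and both are used in embryonic muscle of either kind. Acta1 read 7.18 and 7.66 at day 8, 8.45, 10.51, 8.32 and 9.09 at day 17, and 11.97, 12.03, 10.70 and 11.46 at day 24. Actc1 read 10.94 and 11.31 at day 8, 11.76, 12.43, 12.16 and 12.31 at day 17, and 12.24, 12.24, 12.24 and 12.27 at day 24. Acta1 thus spread over a wide range with the day 24 DCI array lowest of its day, whereas Actc1 was lowest on both day 8 arrays and varied little after day 17.

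The myosin heavy chains, the motors of the thick filament, separated by muscle type. Myh3, the embryonic skeletal chain, read 3.73 and 3.39 at day 8, 6.89, 9.83, 6.90 and 7.79 at day 17, and 9.48, 9.25, 8.49 and 9.15 at day 24. Myh8, the perinatal skeletal chain, read 3.24 and 3.44 at day 8, 7.86, 8.85, 7.51 and 7.58 at day 17, and 8.90, 8.89, 7.67 and 8.57 at day 24. Both skeletal chains were near the bottom of the scale at day 8, and Myh3 read highest of all arrays in the day 17 KGF culture. Myh6, the alpha chain of the heart, read 9.13 and 9.22 at day 8, 9.89, 10.10, 10.36 and 10.35 at day 17, and 9.55, 9.97, 10.10 and 9.99 at day 24. Myh7, the beta chain of heart and slow muscle, read 8.86 and 9.04 at day 8, 8.16, 8.89, 7.83 and 7.95 at day 17, and 7.60, 7.78, 7.06 and 7.70 at day 24. The cardiac chains were thus well above the median at day 8. Myh7 was highest with KGF at day 8 and lowest in the day 24 DCI culture, and its day 17 KGF array was level with the day 8 control.

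**Figure D2:**
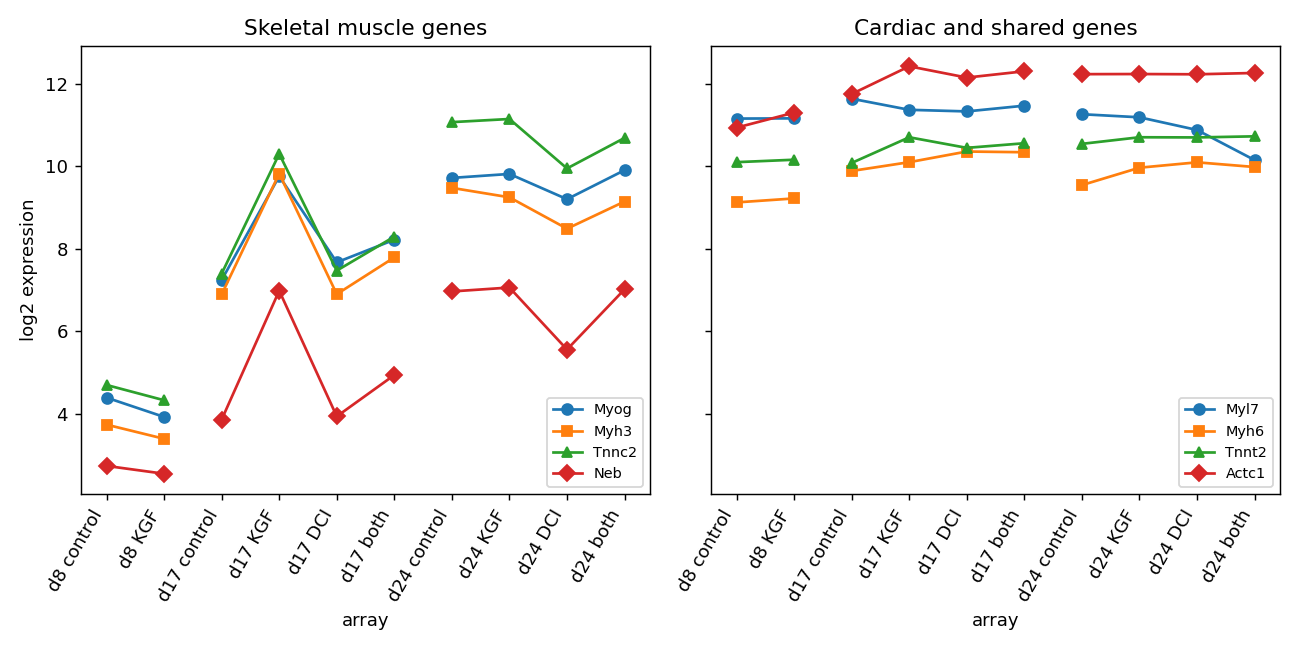
Log2 expression (vertical axis) on each array (horizontal axis, by day and treatment) for 4 skeletal genes on the left and 4 cardiac or shared genes on the right, with lines joining arrays of the same day. Within day 17 Myog, Myh3, Tnnc2 and Neb are highest with KGF, and at day 24 control and KGF lie close, while Myl7, Myh6, Tnnt2 and Actc1 are already high at day 8 and spread less.

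Light chains stabilise the neck of the myosin head, and they followed the same division. Myl1, of fast skeletal muscle, read 5.37 and 5.16 at day 8, 8.16, 10.63, 8.47 and 8.84 at day 17, and 11.70, 11.82, 10.58 and 11.24 at day 24. Mylpf, the fast regulatory chain, read 5.68 and 5.32 at day 8, 8.02, 10.80, 8.29 and 8.78 at day 17, and 11.51, 11.52, 10.40 and 11.01 at day 24. In both, day 17 fell into a high KGF array and 3 lower ones, and in the day 24 set DCI alone was lowest. Myl2, the ventricular chain, read 7.90 and 8.38 at day 8, 9.63, 9.94, 9.35 and 9.63 at day 17, and 8.85, 9.16, 8.97 and 8.59 at day 24. Myl7, the atrial chain, read 11.16 and 11.17 at day 8, 11.64, 11.38, 11.34 and 11.48 at day 17, and 11.27, 11.19, 10.89 and 10.16 at day 24. Myl2 was highest at day 17 on all 4 arrays, and Myl7 was lowest in the day 24 culture with both treatments. Of the other chains Myl3 ranged from 8.83 to 9.71 and Myl4 from 10.53 to 11.52.

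Troponins make the calcium switch of the thin filament, in fast, slow and cardiac forms. Tnnc2, the fast calcium-binding subunit, read 4.70 and 4.32 at day 8, 7.40, 10.31, 7.47 and 8.30 at day 17, and 11.08, 11.15, 9.95 and 10.69 at day 24. Tnni2, the fast inhibitory subunit, read 5.80 and 6.13 at day 8, 7.38, 8.89, 7.51 and 7.87 at day 17, and 10.02, 10.26, 9.61 and 10.24 at day 24. Tnnt3, the fast tropomyosin-binding subunit, read 5.02 and 4.96 at day 8, 8.22, 8.60, 8.65 and 8.90 at day 17, and 9.26, 9.55, 9.45 and 9.62 at day 24. The first of these had its day 17 KGF array far above the other 3, while Tnnt3 did not and was lowest in the control on both later days.

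Tnnt1, the slow tropomyosin-binding subunit, read 5.82 and 5.92 at day 8, 8.86, 10.31, 8.89 and 9.26 at day 17, and 10.23, 10.26, 9.78 and 10.14 at day 24. Tnni1, the slow inhibitory subunit that the embryonic heart also makes, read 10.79 and 11.001 at day 8, 9.57, 10.34, 9.76 and 9.94 at day 17, and 10.33, 10.37, 9.87 and 10.08 at day 24. Tnni1 was the 1 skeletal gene that was highest at day 8. Tnnc1, the calcium-binding subunit of slow and heart muscle, read 9.90 and 10.00 at day 8, 10.22, 11.30, 10.32 and 10.64 at day 17, and 11.24, 11.24, 10.77 and 10.97 at day 24. Tnni3, the adult heart form that replaces Tnni1, read 6.76 and 6.92 at day 8, 8.83, 9.02, 9.21 and 9.45 at day 17, and 9.21, 9.39, 9.53 and 9.05 at day 24. Tnni3 was low on both day 8 arrays and high on all 8 later ones, with no overlap, and cardiac Tnnt2 stayed between 10.09 and 10.73 throughout.

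Titin and nebulin set the lengths of the filaments, and myosin-binding protein C tunes the thick filament. Neb, for nebulin of skeletal muscle, read 2.73 and 2.54 at day 8, 3.86, 6.98, 3.93 and 4.94 at day 17, and 6.97, 7.06, 5.56 and 7.02 at day 24. Ttn read 8.32 and 8.32 at day 8, 7.84, 9.28, 7.81 and 7.997 at day 17, and 8.54, 8.58, 7.54 and 8.35 at day 24. Mybpc1, the slow skeletal form, read 5.20 and 4.63 at day 8, 5.66, 7.61, 5.57 and 6.36 at day 17, and 8.02, 8.23, 7.86 and 8.57 at day 24. All 3 had the KGF array on top at day 17 and the DCI array at the bottom at day 24, by a wide margin for Neb and Ttn and a narrow one for Mybpc1. The fast form Mybpc2 ranged from 3.83 to 6.38 and the cardiac form Mybpc3 from 6.77 to 7.74.

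The Z-disc anchors the thin filaments. Actn2, an alpha-actinin of heart and skeletal muscle, read 6.59 and 6.55 at day 8, 6.77, 8.24, 7.29 and 7.56 at day 17, and 7.98, 8.19, 7.81 and 8.14 at day 24. Actn3, the fast-fibre actinin, read 6.14 and 6.14 at day 8, 6.30, 7.36, 6.54 and 6.56 at day 17, and 8.22, 8.25, 7.33 and 7.78 at day 24. Both were close to their day 8 values in the day 17 control. Myoz2, the calsarcin of heart and slow fibres, read 4.11 and 3.62 at day 8, 6.87, 7.94, 6.99 and 7.38 at day 17, and 8.97, 8.95, 8.59 and 8.64 at day 24. Myoz1, the calsarcin of fast fibres, read 4.62 and 4.80 at day 8, 4.45, 4.98, 4.67 and 4.81 at day 17, and 6.37, 6.79, 5.71 and 5.57 at day 24. Myoz1 was the late one, at its day 8 level until day 17 and higher on all 4 day 24 arrays. Ldb3 ranged from 7.28 to 8.12 on the probe set used and Tcap from 5.41 to 5.96. A dimmer Ldb3 probe set rose by 0.96 ± 0.11 from day 17 to day 24 (limma adjusted p = 0.000142). The probe set used gave -0.10 and the remaining one 0.18 ± 0.11.

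Of the calcium-handling genes, Atp2a1, the fast-fibre pump that refills the store, read 5.47 and 5.23 at day 8, 5.63, 6.72, 5.73 and 5.96 at day 17, and 6.96, 7.56, 7.13 and 7.96 at day 24. Casq1, the skeletal calcium buffer of the store, read 5.47 and 5.71 at day 8, 7.06, 7.24, 7.03 and 7.30 at day 17, and 7.09, 7.53, 7.14 and 7.01 at day 24. Atp2a1 was late except with KGF, while Casq1 had its later level on all 4 day 17 arrays. Casq2, the cardiac buffer, read 5.70 and 4.83 at day 8, 7.90, 8.59, 7.76 and 8.03 at day 17, and 8.74, 8.84, 8.47 and 8.83 at day 24. Pln, for phospholamban, the brake on the pump of heart and slow muscle, read 4.48 and 4.68 at day 8, 6.93, 7.62, 6.98 and 7.29 at day 17, and 6.99, 7.31, 7.59 and 7.74 at day 24. Neither cardiac gene overlapped between day 8 and the later days. The release channels lay lower, with skeletal Ryr1 between 3.39 and 5.87 and cardiac Ryr2 between 4.81 and 6.47, the latter highest with KGF at day 8.

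Of the energy and oxygen genes, Ckm, for muscle creatine kinase, read 4.96 and 4.88 at day 8, 6.44, 6.88, 7.50 and 7.93 at day 17, and 8.29, 8.77, 8.56 and 8.70 at day 24. Mb, for myoglobin, read 5.37 and 5.79 at day 8, 8.27, 8.52, 7.53 and 7.87 at day 17, and 9.26, 9.51, 8.43 and 8.35 at day 24. At day 17 the DCI arrays were the higher pair for Ckm and the lower pair for Mb, and at day 24 they remained the lower pair for Mb. The heart hormones Nppa and Nppb ranged from 3.63 to 5.12 and from 4.60 to 6.20, each highest in the day 8 control.

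From day 8 to day 17 most of the muscle genes rose. The spread came from an additive limma model of day, KGF and DCI fitted to all 10 arrays (5 residual degrees of freedom), with Benjamini-Hochberg adjustment over all 18193 genes and a threshold of 0.05. Of the 46 genes 31 rose and 5 fell, where 42.4% of all genes passed (21.4% higher and 21% lower). The median difference was 1.10, against -0.02 over all genes. Of the skeletal genes 18 of 22 rose and 1 fell (median 2.10), of the cardiac ones 7 of 16 rose and 4 fell (median 0.38), and of the shared ones 6 of 8 rose (median 0.89).

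The largest rises were in the fast and embryonic sarcomere. Myh8 rose by 5.01 ± 0.22 (SE; limma adjusted p = 2.85e-08), Myh3 by 4.68 ± 0.56, Tnnc2 by 4.30 ± 0.52, Myl1 by 4.16 ± 0.44 and Mylpf by 3.89 ± 0.51. Myog rose by 4.26 ± 0.47 (adjusted p = 3.47e-05 in limma). Among cardiac and shared genes the risers were the calsarcin Myoz2 (3.57 ± 0.26), Casq2 (2.93 ± 0.26), Mb (2.89 ± 0.13), Pln (2.53 ± 0.19), Tnni3 (2.19 ± 0.17) and Myl2 (1.63 ± 0.15). The genes that fell were Nppb by 1.08 ± 0.16, Tnni1 by 0.87 ± 0.14, Ryr2 by 0.81 ± 0.13, Nppa by 0.63 ± 0.22 and Myh7 by 0.51 ± 0.16, all but Tnni1 grouped as cardiac. The troponin I forms therefore went opposite ways over this interval, Tnni1 down and Tnni3 and Tnni2 up (Tnni2 by 2.11 ± 0.23).

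Without the day 8 control array 30 rose and 3 fell, and without the day 8 KGF array 22 rose and 4 fell. Of the shared genes 3 of 8 rose without the day 8 KGF array, and of the cardiac genes 2 fell without the control array of day 8 or of day 17. Without the day 8 control Myh7 was at -0.39 (limma adjusted p = 0.208) and Nppa at -0.57 (adjusted p = 0.213), and without the day 17 control Myh7 was at -0.43 (adjusted p = 0.0933). In limma, Nppa also missed the threshold without the day 8 KGF array (adjusted p = 0.122) and without the control, KGF or combined array of day 17 or the control or DCI array of day 24 (adjusted p from 0.0602 to 0.15). The skeletal median was 2.30 without the day 8 control array and 1.89 without the day 8 KGF array. A further Ryr2 probe set gave 0.20 ± 0.18 for this interval, and that of Myl4, called as higher, gave -0.43 ± 0.17.

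From day 17 to day 24 skeletal genes rose further, while part of the cardiac set fell. Over the same fit 25 of the 46 genes rose and 6 fell, where 37.3% of all genes passed (14.8% higher and 22.5% lower), with a median of 0.56 against -0.01 over all genes. All risers but 6 were skeletal, with 19 of 22 higher and 0 lower (median 1.22). All 6 that fell were cardiac, against 2 cardiac genes that rose, Myoz2 and Casq2, and 4 of 8 shared genes rose.

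The largest late rises were again in sarcomere genes of skeletal muscle. Acta1 rose by 2.45 ± 0.24 (SE; limma adjusted p = 2.97e-05), Tnnc2 by 2.35 ± 0.40, Myl1 by 2.31 ± 0.33, Mylpf by 2.14 ± 0.38, Tnni2 by 2.12 ± 0.18 and Mybpc1 by 1.87 ± 0.32. Myoz1, at its day 8 level until day 17, joined in at 1.38 ± 0.19. Atp2a1 rose by 1.39 ± 0.20 and Actn3 by 1.21 ± 0.17. With KGF, Atp2a1 and Actn3 already read 1.49 and 1.22 higher at day 17 than at day 8. Actn3 had also been called as higher in the first interval. The genes that fell were Myl2 by 0.74 ± 0.12, Mybpc3 by 0.71 ± 0.10, Myh7 by 0.67 ± 0.12, Ryr2 by 0.60 ± 0.10 (its other probe set gave 0.05 ± 0.13), Myl7 by 0.58 ± 0.15 and Myh6 by 0.27 ± 0.08. These include the light chains Myl2 and Myl7 and both cardiac heavy chains. The light chains Myl3 (0.21) and Myl4 (0.19) lay above 0 and did not pass. Further Myl3 probe sets gave 0.26 ± 0.09 (limma adjusted p = 0.0433) and 0.15 ± 0.08. Cardiac Tnnt2 (0.22 ± 0.09), Tnni3 (0.17 ± 0.13) and Pln (0.20 ± 0.14) did not pass either. Their 95% intervals were 0.03 to 0.41, -0.11 to 0.45 and -0.12 to 0.52.

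**Figure D3:**
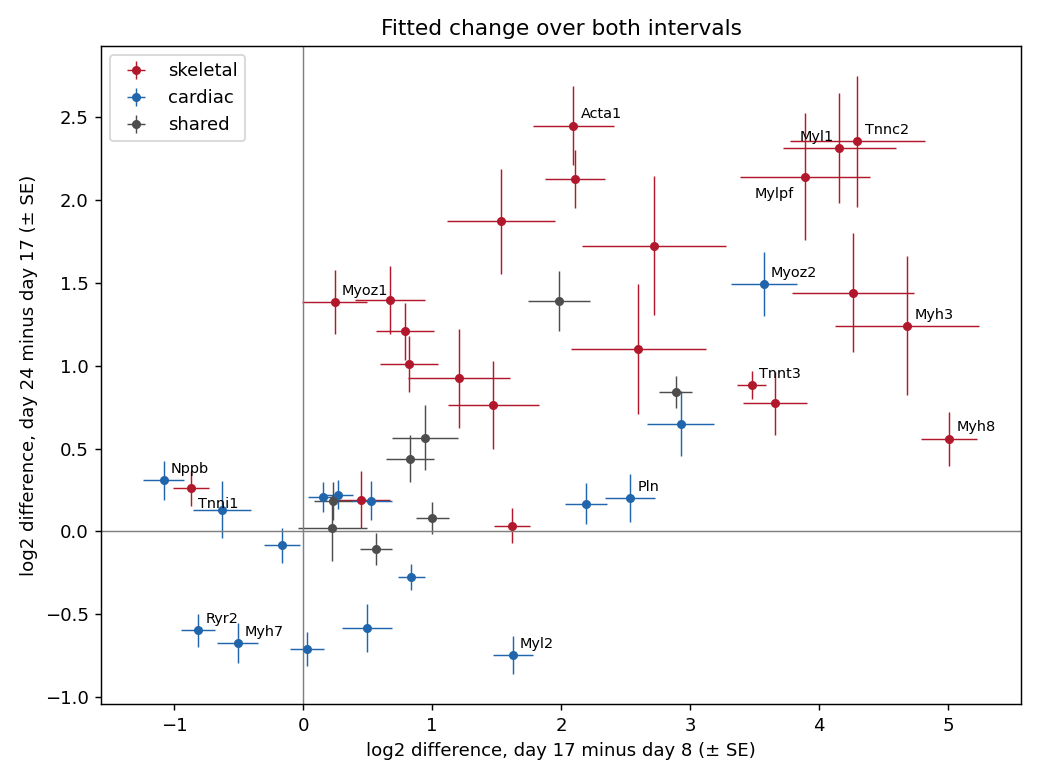
Fitted log2 difference from day 17 to day 24 (vertical axis) against that from day 8 to day 17 (horizontal axis) for each of the 46 genes, with standard errors as bars and colours for skeletal, cardiac and shared genes. Most skeletal genes lie in the upper right, Myoz2 lies among them, and the points under 0 on the vertical axis are nearly all cardiac; both differences share the day 17 arrays, so their relation is not a result.

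The smaller changes of this interval hung on single arrays. Of the skeletal genes 14 of 22 rose without the control or combined array of day 17 or of day 24, against 19 in the full fit. All 22 differences stayed above 0 in these fits. Without the DCI array of either day 16 of 22 rose. The rises fell to 2 of 8 shared and 1 of 16 cardiac genes without the control, DCI or combined array of day 17 or the control or DCI array of day 24, and without the day 17 KGF array 5 cardiac genes rose and 5 fell. Casq2 (0.65) missed the threshold in limma without any of 6 arrays (adjusted p from 0.0515 to 0.0833), the combined array of day 24 being the sixth beside those 5. Myh3 (1.24 ± 0.42) passed without the KGF array of either day or either day 8 array and missed the threshold without any other (limma adjusted p from 0.0874 to 0.123), and Myod1 (0.92 ± 0.30) behaved alike (adjusted p from 0.0748 to 0.1). Without the day 17 control array Myh3 was at 0.78 and Myod1 at 0.59. Myh6 missed it without the day 17 KGF, day 17 DCI, day 24 control or day 24 combined array (adjusted p from 0.0553 to 0.0825).

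Followed within each culture condition, the 2-fold differences fell in different intervals with and without KGF (each is 1 array against 1, and the intervals share the day 17 arrays). In the control 20 of the 46 genes read at least 2-fold higher at day 17 than at day 8 and 2 lower (beside 9.26% and 4.68% of all genes), and with KGF 28 and 0 (beside 9.38% and 3.84%). From day 17 to day 24 the control had 22 higher and 0 lower (beside 2.53% and 1.77%), 18 of them skeletal, and KGF 7 higher and 1 lower (beside 2.62% and 1.54%), 5 of them skeletal. Neb read 3.11 higher at day 24 than at day 17 in the control and 0.08 higher with KGF, and Myh3 2.59 higher and 0.57 lower (-0.57). Fast-fibre Myoz1 read 1.92 and 1.80 higher. From day 8 to day 24 the control had 29 higher and 2 lower (beside 11.6% and 9.73%) and KGF 28 and 2 (beside 12.1% and 8.04%), the lower ones being Myh7 and Ryr2 in both. With DCI 15 read higher and 0 lower from day 17 to day 24 (beside 2.53% and 3.01%), and with both treatments 15 and 2 (beside 2.65% and 3.55%), the lower ones being Myl7 (-1.32) and Myl2 (-1.04).

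KGF raised none of the 46 genes past the threshold in the additive fit, but at day 17 the KGF culture differed from the control in many of them. There 19 of the 46 genes read at least 2-fold above the control and 0 at least 2-fold below it, where 0.742% and 0.236% of all genes did so. Of the 22 skeletal genes all were above the control, 15 of them at least 2-fold, with a median difference of 1.61. The largest differences were Neb (3.13), Myh3 (2.93), Myf5 (2.92), Tnnc2 (2.91), Mylpf (2.78) and Myog (2.52), and Myod1 was 1.94 higher. Only Myoz2 (1.07) of 16 cardiac genes and Actn2 (1.48), Ttn (1.44) and Tnnc1 (1.08) of 8 shared genes passed 2-fold. This is 1 array against 1, with no replicate check.

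The same comparison at the other days was small. At day 8 none of the 46 genes differed 2-fold with KGF, where 0.17% of all genes were higher and 0.077% lower, and the skeletal median was -0.03. At day 24 none did either, where 0.291% and 0.126% of all genes did, with a skeletal median of 0.07. On top of DCI the skeletal median with KGF was 0.37 at day 17, with 1 gene past 2-fold (Neb, 1.00, beside 0.423% of all genes higher), and 0.65 at day 24, with 3 past it (Neb 1.46, Myf5 1.14 and Ryr1 1.13, beside 0.269%). The combined culture at day 17 read at least 2-fold below KGF alone for 14 of the 46 genes, 13 of them skeletal (beside 1.2% of all genes lower and 1.59% higher), among them Neb (-2.05), Myh3 (-2.03), Mylpf (-2.02) and Tnnc2 (-2.01). KGF alone read at least 2-fold above DCI alone for 16 of the 46 genes at day 17 and 11 at day 24, and below it for 0 at either day (beside 1.61% of all genes higher and 1.96% lower at day 17, and 2.39% and 1.56% at day 24). At day 24 the combination read 2-fold below KGF alone for 4 genes, Nppa (-1.28), Myoz1 (-1.21), Mb (-1.16) and Myl7 (-1.04), and above it for 0 (beside 2.4% and 1.7%). Against the day 17 control the combined culture read at least 2-fold higher for 4 genes (Ckm 1.49, Myf5 1.40, Neb 1.08 and Myod1 1.02, beside 1.76% of all genes) and lower for 0 (beside 1.17%).

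**Figure D4:**
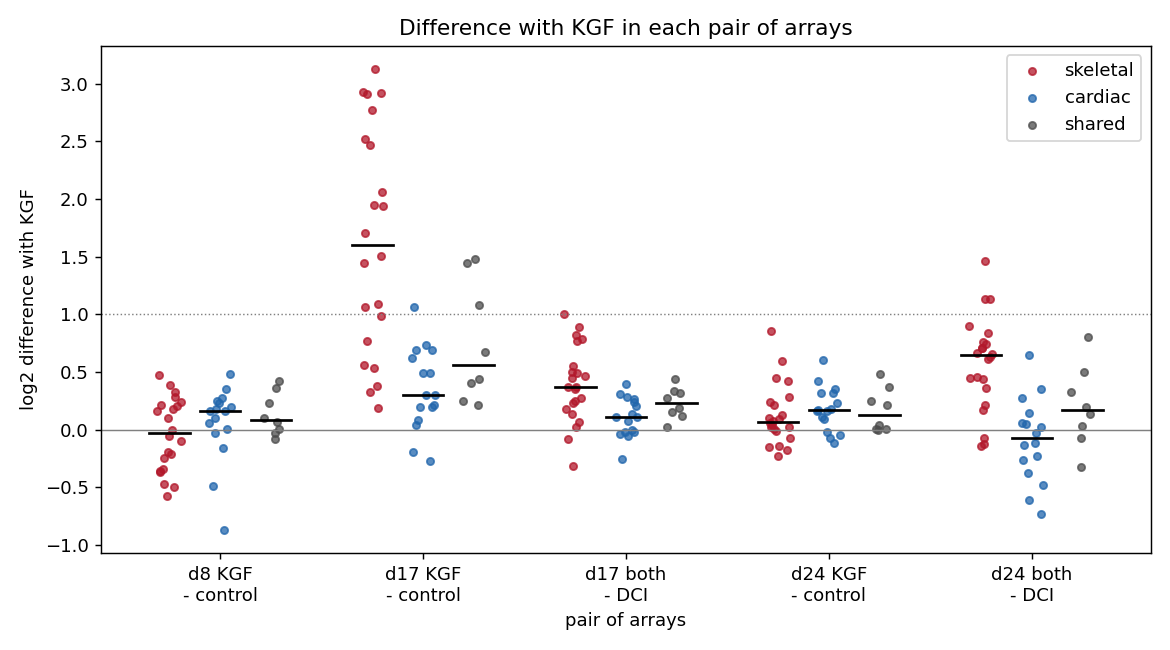
Log2 difference with KGF in each of 5 pairs of arrays (vertical axis; the dotted line is 2-fold), 1 point per gene, in red for skeletal, blue for cardiac and grey for shared genes, with a bar at each class median. The skeletal genes of the day 17 pair without DCI rise to a median of 1.61 and the highest of the other class medians is 0.65, for skeletal genes with DCI at day 24.

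Over the 10 arrays in the additive fit, 0 of the 46 genes passed for KGF, where 0.0055% of all genes did, and 23 of them had an unadjusted p under 0.05 in limma (1466 of all 18193 genes did). The median difference was 0.28, with 43 of 46 above 0, and for skeletal genes 0.54. The smallest adjusted p was 0.344, for Tnni2 (0.61 ± 0.16) and Acta1 (0.82 ± 0.21, 95% interval 0.35 to 1.30). Neb was at 1.10 ± 0.38 (interval 0.27 to 1.93) and Myog at 0.68 ± 0.32 (interval -0.03 to 1.39). Without the day 17 KGF array the skeletal median fell to 0.31, and without the day 17 control array to 0.33. These p-values do not show that KGF left the genes unchanged.

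Whether the KGF difference changed from day 17 to day 24 was asked on the 8 arrays of those days (3 residual degrees of freedom). None of the 46 genes passed in limma, where 0% of all genes did, and 6 had an unadjusted p under 0.05. The interaction was below 0 for 39 of 46 genes, with a median of -0.32 over all 46 and -0.67 over the skeletal ones. For Myh3 it was -1.70 ± 0.61 (limma adjusted p = 0.944, 95% interval -3.12 to -0.27) and for Tnnc2 -1.46 ± 0.58 (interval -2.80 to -0.11). In simulated data an interaction of 1 was recovered for 37.3% of changed genes and 1 of 2 for 75.8%. The skeletal median was -0.27 without the day 17 KGF array and -0.36 without the day 17 control.

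DCI lowered 6 of the 46 genes and raised 1. Taken in both directions together, that is a share near the 15.4% of all genes that passed (7.27% higher and 8.09% lower). Myoglobin Mb fell by 0.85 ± 0.10 (SE; limma adjusted p = 0.000217), Myh8 by 0.79 ± 0.16, Acta1 by 0.85 ± 0.24, Myl4 by 0.55 ± 0.12, Nppb by 0.51 ± 0.12 and Myh7 by 0.48 ± 0.12. Myh6 rose by 0.32 ± 0.08 (adjusted p = 0.0216 in limma), opposite to Myh7, the other heavy chain of the heart. The median over the 46 genes was -0.29, against -0.01 over all genes, and -0.42 over the skeletal genes, of which 20 of 22 were below 0. Ckm was at 0.57 ± 0.18 (limma adjusted p = 0.057, 95% interval 0.17 to 0.97), Tnnc2 at -0.88 ± 0.40 and Neb at -0.86 ± 0.42, none past the threshold.

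Between single arrays the differences were uneven. At day 24 the DCI array read at least 2-fold below the control for 8 of the 46 genes, 7 of them skeletal (Neb -1.41, Acta1 -1.27, Myh8 -1.23, Ryr1 -1.17, Tnnc2 -1.12, Myl1 -1.12 and Mylpf -1.11) and the last Ttn (-1.0015), where 2.2% of all genes were lower, and 0 above it, where 1.65% were. With both treatments at day 24, 1 gene was 2-fold below the control (Myl7, -1.11, beside 2.56% of all genes). At day 17 DCI alone gave 1 gene 2-fold higher, Ckm (1.05, beside 1.48% of all genes), and 0 lower (beside 1.03%). In the same fit all 8 macrophage marker genes fell with DCI (median -2.43), and the part of that shift in the muscle values was not tested.

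The DCI values rest on single arrays. Without the day 17 KGF array the median over the 46 genes was -0.13, and over the skeletal genes -0.18, with 15 of 22 below 0; without the day 17 control they were -0.50 and -0.62. The count of calls was 17, all lower and 11 of them skeletal, without the day 17 control, and 4 without the day 24 control. Mb and Myh8 passed whichever array was left out, and so did Myl4. In limma, Acta1 missed the threshold without any of 6 arrays of days 17 and 24, the day 17 control and the day 24 KGF array being the exceptions (adjusted p from 0.0706 to 0.139). Without the day 24 control the other 3 missed it in limma: Myh7 at -0.47 (adjusted p = 0.0733), Nppb at -0.46 (adjusted p = 0.0723) and Myh6 at 0.26 (adjusted p = 0.0932). Each of these 3 also missed it without 1 to 3 further arrays: Myh7 without the day 17 KGF, day 17 combined or day 24 DCI array, Nppb without the day 24 combined array, and Myh6 without the day 17 control, day 17 DCI or day 24 DCI array.

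The DCI difference changed between the days for 1 of the 46 genes, Ckm, a share near the 2.51% of all genes that passed (0.533% higher and 1.97% lower). Ckm read 1.05 above the control with DCI at day 17 and 0.27 above it at day 24. The combination minus KGF alone was 1.05 at day 17 and -0.08 at day 24. Over both pairs the fitted interaction of Ckm was -0.96 ± 0.15 (limma adjusted p = 0.0103). In limma it missed the threshold, leaving 0 genes, without the day 17 combined array (adjusted p = 0.0754) or the day 24 KGF array (adjusted p = 0.0577). Without the day 17 control 10 of the 46 genes passed, 9 of them with a higher and 1 with a lower interaction. Without the day 17 KGF array 6 passed and without the day 24 DCI array 3, all lower.

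No muscle gene departed from the sum of the single treatments past the threshold when both were given, where 0% of all genes did. At an unadjusted p under 0.05 in limma there were 2, Nppa (-0.78 ± 0.26) and Myh6 (-0.38 ± 0.12). All 46 values lay below 0, with a median of -0.30, but 25 did without the day 17 KGF array (median -0.04) and 22 without the day 17 control (median 0.01). In simulated data an interaction of 1 was recovered for 17.9% of changed genes, so most of that size would have been missed.

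Among 94 measured genes of muscle outside the 46, taken from 6 lists, 32 rose and 21 fell from day 8 to day 17, 36 rose and 16 fell from day 17 to day 24, and 5 rose and 15 fell with DCI, beside 42.4%, 37.3% and 15.4% of all genes passing in either direction. With KGF 0 passed (29 at an unadjusted p under 0.05 in limma). Without the day 8 KGF array 23 rose and 23 fell in the first interval, and the rises with DCI ranged down to 1 without the DCI array of either day. The cardiac regulators went down together: 11 of 14 fell from day 8 to day 17 and 0 rose, with all 14 below 0 and a median of -1.34, and 7 fell from day 17 to day 24. Tbx20, a T-box factor of the heart, read 9.90 and 9.68 at day 8, 7.97, 7.56, 8.31 and 7.96 at day 17, and 6.02, 6.67, 6.16 and 5.81 at day 24. It fell by 1.84 ± 0.25 and then by 1.78 ± 0.19 (SE; limma adjusted p = 5.5e-05 for the second interval). Myocd, a coactivator of heart and smooth muscle genes, fell by 1.59 ± 0.20 and 1.26 ± 0.15, Gata5 by 1.57 ± 0.25 and 1.20 ± 0.19, and Tbx2 by 1.32 ± 0.16 and 0.90 ± 0.12. The count of 11 held without the day 8 control array, with a median of -1.23.

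**Figure D5:**
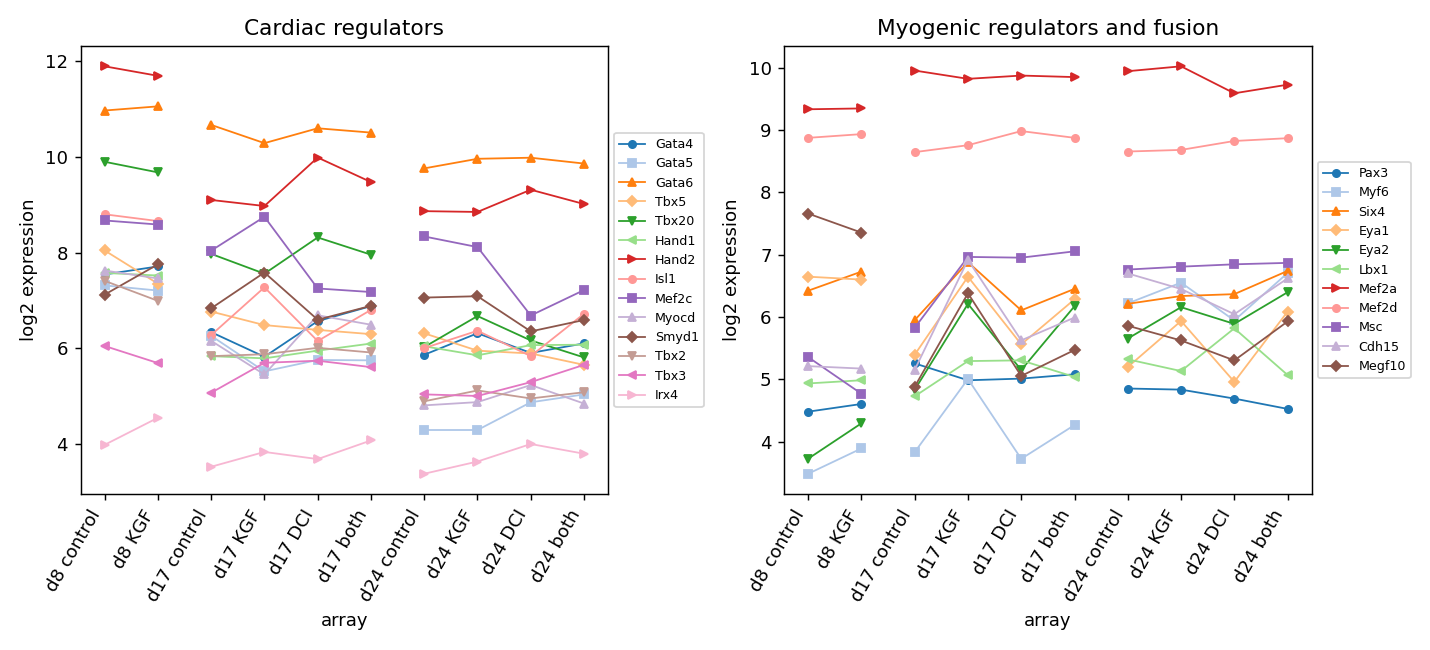
Log2 expression (vertical axis) on each array (horizontal axis) of 14 cardiac regulators on the left and 11 myogenic regulators and fusion genes on the right, with lines joining arrays of the same day. The cardiac regulators are mostly highest at day 8 and lower at days 17 and 24, and among the myogenic genes Cdh15, Megf10, Eya1, Eya2 and Myf6 have a peak at the day 17 KGF array within their day.

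The myogenic regulators and fusion genes were mixed. Of 11, 5 rose and 1 fell from day 8 to day 17, beside 42.4% of all genes passing in either direction. From day 17 to day 24, 2 rose and 1 fell, beside 37.3%. Without the day 17 KGF array 3 fell in the first interval, and without the day 17 control 1 rose and 0 fell in the second. Myf6, the myogenic factor of maturing fibres, read 3.48 and 3.89 at day 8, 3.83, 5.00, 3.72 and 4.26 at day 17, and 6.22, 6.55, 5.94 and 6.71 at day 24. It rose by 2.15 ± 0.15 in the later interval (limma adjusted p = 2.96e-06), so the day 24 arrays lay above every earlier one. Eya2, a transcriptional coactivator of early myogenesis, rose by 1.49 ± 0.20 and 0.43 ± 0.15, Megf10 of satellite cells fell by 1.94 ± 0.33 in the first interval, and Pax3 rose by 0.62 ± 0.14 and then fell by 0.36 ± 0.11.

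Genes of the nerve contact had smaller medians than the skeletal set. At the neuromuscular junction 3 of 10 rose and 1 fell in the first interval (median 0.26), a share near the 42.4% of all genes, and 4 rose and 1 fell in the second (median 0.25), beside 37.3%. Chrna1, a subunit of the acetylcholine receptor, rose by 1.62 ± 0.37 and 1.18 ± 0.28, and Chrng, the fetal subunit, by 0.90 ± 0.20 in the second interval (limma adjusted p = 0.00489). Dok7, which helps cluster the receptor, rose by 0.56 ± 0.09 and Lrp4, the receptor for agrin, fell by 1.08 ± 0.20 and 0.59 ± 0.15. Of 27 other sarcomere genes 12 rose and 5 fell in the first interval (beside 42.4% of all genes passing) and 13 rose and 4 fell in the second (beside 37.3%). With DCI 9 of them fell, beside 8.09% of all genes lower. The rises of the second interval were Myot at 2.22 ± 0.41, Lmod2 at 1.68 ± 0.15, Klhl41 at 1.68 ± 0.31 and Myom2 at 1.36 ± 0.30, for a Z-disc protein, a nucleator of actin filaments, a stabiliser of nebulin and an M-band protein.

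Of 21 genes of the membrane and of excitation-contraction coupling, 6 rose and 3 fell in the first interval (median -0.01), a share near the 42.4% of all genes, and 9 rose and 3 fell in the second (median 0.33), beside 37.3%. Without the day 8 KGF array 3 rose and 5 fell in the first interval. Sln, for sarcolipin, an inhibitor of the calcium pump, rose by 2.81 ± 0.23 and 2.01 ± 0.17 (limma adjusted p = 1.35e-05 for the second). Cav3, the muscle caveolin, rose by 3.28 ± 0.34 and 1.27 ± 0.25, and in the second interval Cacng1, a calcium channel subunit, rose by 1.64 ± 0.25 and Sgca, a sarcoglycan, by 0.90 ± 0.14. Of 11 genes of muscle metabolism 6 and 8 rose and 0 fell, beside 42.4% and 37.3% of all genes passing in either direction. Among them were the muscle forms of cytochrome oxidase Cox8b (1.99 ± 0.21 and 1.19 ± 0.16), Cox6a2 (2.24 ± 0.12 and 0.63 ± 0.09) and Cox7a1 (1.53 ± 0.13 and 0.61 ± 0.10). The mitochondrial creatine kinase Ckmt2 rose by 1.14 ± 0.15 in the second.

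At day 17 the KGF array read at least 2-fold above the control for 16 of these 94 genes and below it for 0, beside 0.742% and 0.236% of all genes. Myot read 3.85 in the control and 6.15 with KGF, Klhl41 3.79 and 6.31, Chrna1 5.95 and 8.18, Myom2 5.65 and 7.89, and Cav3 6.43 and 8.11. These genes therefore stood out on the same array as Myog and Myh3. The 10 smooth muscle markers did not: 0 passed 2-fold on that pair, and their median difference was 0.00, with Acta2 at 11.88 and 12.26 and Tagln at 11.42 and 11.44.

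Other cell types moved with day and treatment alongside. The primitive erythroid list (5 genes) was at a median of 12.48 and 12.43 on the day 8 arrays and at most 5.03 later, and the macrophage list (8 genes) at 5.55 and 5.67 at day 8, 9.58 in the day 17 control and 7.71 with DCI. Smooth muscle markers rose from medians of 6.91 and 6.95 at day 8 to between 8.05 and 8.35 at day 17, and between 8.51 and 8.82 at day 24. On the day 17 control and KGF arrays the medians were 11.77 and 11.84 for fibroblast, 10.31 and 10.71 for epithelial, 9.58 and 9.78 for macrophage and 7.17 and 6.84 for endothelial markers, beside 6.98 and 8.10 for the skeletal genes. The part that such shifts in the mix of cells play in the muscle values was not tested.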

How the data were processed

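Total RNA from mouse embryonic stem cell cultures was labelled and hybridised to Affymetrix arrays, per the labels' protocols. The values deposited by the authors are log2 signals from RMA, per the submitters' processing notes; the version, and whether the 10 arrays were normalised together, is not given in the sources used here. No genome build is named for these values.

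The table held 45101 probe sets, of which 34945 carry 1 gene symbol in the platform annotation, 932 several, 9160 none and 64 are controls. Each of 18193 genes was read from its probe set with the highest mean. The 46 members and all lists were chosen with earlier results of these data known. Members reaching the median of all values with a range of at least 1 were given on every array and the rest by range; of each companion list up to 4 genes with the largest day 17 to day 24 or KGF difference among those past the threshold were named.

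The tests used limma 3.58.1 in R 4.3.3 with a mean trend in the variance prior, fitted over all genes, with Benjamini-Hochberg adjusted p-values and a threshold of 0.05. Interactions were added 1 at a time on the 8 arrays of days 17 and 24. With 1 array per condition the p-values measure only the spread around the model, and nothing in the labels says that arrays came from separate cultures. The arrays' number limits the precision. Differences between 2 arrays were given without a test, with 2-fold as the mark. The fits were tested on simulated data in which the changed genes were drawn at random from all genes. They recovered 83.6% of changes of 1 from day 8 to day 17 and 95.5% from day 17 to day 24. For DCI and for KGF they recovered 92.5%. These rates do not carry over to genes with a wide spread, such as Neb with an SE of 0.38 for KGF. Alternatives changed the probe set rule, the variance prior, the filter on dim genes, the normalisation, the arrays and the threshold. Promoters came from RefSeq (GRCm38.p6). Python 3.11.15, pandas 2.3.3 and matplotlib 3.10.9 prepared tables and figures.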

Additional observations from a re-analysis of the deposited data

Results flagged for a closer look

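The response to DCI differed between day 17 and day 24 for Ckm, by an interaction of -0.9574 ± 0.15 (SE; limma adjusted p = 0.0103, 95% interval -1.29 to -0.63). The other Ckm probe set, which read between 4.99 and 5.28 on all arrays, gave -0.09 ± 0.22.

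Ankrd1, a stress-responsive ankyrin repeat protein of the sarcomere, differed the other way, by 0.8193 ± 0.12 (SE; limma adjusted p = 0.00746). It read 7.36 and 7.18 at day 8, 7.68, 7.94, 7.29 and 7.46 at day 17, and 8.33, 8.68, 8.77 and 9.01 at day 24 (control, KGF, DCI and both). The DCI arrays were the lower pair at day 17 and the higher pair at day 24. It was the only gene of the 94 companions to pass, beside 2.51% of all genes, and it was singled out after its values were seen.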

How the results depend on the processing

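No paired analysis was possible because the labels carry no replicate numbers to pair arrays by; the additive fit already sets KGF and DCI against arrays of the same day. Over the 15 to 17 other settings of each comparison 24 of 36 genes called from day 8 to day 17, 19 of 31 from day 17 to day 24, 2 of 7 for DCI and 0 of 1 for DCI by day passed in every one, with 0 sign changes among them, the gene's other probe sets aside. Leaving out each array in turn gave 26 to 38 genes from day 8 to day 17, 22 to 34 from day 17 to day 24, 4 (without the day 24 control) to 17 (without the day 17 control) for DCI, 0 to 10 for DCI by day, and 0 to 0 for KGF, KGF by day and KGF by DCI. The DCI count of 7 was 4 when all probe sets of a gene were averaged and 15 at an adjusted p under 0.10. The DCI by day count of 1 was 0 without a trend in the variance prior, 0 with the mean of probe sets, 3 at an adjusted p under 0.10 and 4 with all 3 interactions in 1 fit. With the mean of probe sets, the 2-fold count at day 17 was 0 in place of 1 for DCI against control and 2 in place of 4 for the combination against control. After a further quantile normalisation the day 24 combination differed 2-fold from the control for 2 genes in place of 1. Other probe sets turned the direction of 4 called genes: from day 8 to day 17 Ckm gave -0.1039, Mb -0.1127, Myl4 -0.428 and Ryr2 0.199, from day 17 to day 24 Ryr2 gave 0.0524, and for DCI Mb gave 0.133 (those of Myl4 and Ryr2 were added after seeing the data). These read 4.99 to 5.28 for Ckm and 4.92 to 5.39 for Mb on all arrays. Why the other values moved was not tested. Genes below the median of all values everywhere, such as Myf5 and Nppa, lie where array signal limits what can be seen.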

Other observations

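A pair of probe sets is annotated to both Myh7 and Myh6 and entered no comparison. The brighter one read 8.81 and 9.04 at day 8, 9.30, 9.64, 9.33 and 9.44 at day 17, and 8.51, 8.87, 8.95 and 9.06 at day 24 (control, KGF, DCI and both). The dimmer one lay between 4.30 and 5.08. The brighter one was higher on each day 17 array than on any array of day 8 or day 24.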
